A study of Mus musculus with 12 samples.

Results

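Integrins and cadherins are the main receptors by which cells hold on to the matrix and to each other. The members were all gene symbols of the deposited count table for an integrin α subunit, for the integrin β subunits 1 to 8, or for a cadherin with a numbered Cdh symbol. They numbered 49 of 23955 symbols, 26 integrin and 23 cadherin genes. In all, 42 members had at least 10 counts summed over the 12 libraries, and 23 of these, 18 integrins and 5 cadherins, passed the filter on low counts and were tested. At the limit of 10 counts, Cdh1 was just inside with 10 and Cdh20 just outside with 7. The other members below it were Itgax, Cdh4, Cdh5, Cdh15, Cdh22 and Cdh26.

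The cells were mesenchymal stem cells of mouse bone marrow, which are able to become fat, bone or cartilage cells, bought as a commercial stock derived from female C57BL/6 mice and used at passages 9 to 10; the age of the mice is not given in the labels. All 3 groups received the same adipogenic cocktail for 14 days, made of dexamethasone (1 uM), insulin (5 ug/mL) and isobutylmethylxanthine (0.5 mM). To it were added 0.1% DMSO as the vehicle, 500 nM rosiglitazone (ROSI), a drug that activates the fat cell receptor PPARγ, or 50 nM tributyltin (TBT), an organotin that activates RXR and PPARγ, with 4 libraries per group. The concentrations of the 2 compounds differed, so TBT against ROSI compares 2 treatments and not the compounds at a matched dose. Whether the 4 libraries of a group are separate cultures is not stated in the labels; p-values then measure only their spread, in part or wholly technical.

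An integrin is a pair of 1 α and 1 β subunit that spans the membrane. The α subunit largely sets which matrix protein is bound, such as a collagen, a laminin or fibronectin, and the β tail connects through talin, kindlin and related adaptors to actin. Cadherins bind like cadherins on a neighbouring cell and are tied to actin by catenins. Marrow stromal cells are known for collagen- and fibronectin-binding integrins and for cadherin-11, and cells that become fat cells round up and exchange a fibrillar matrix for a basement membrane.

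The 250 bases before the start of 6 members are shown: the collagen-binding α subunits (Itga1, Itga2, Itga10, Itga11), because all 4 fell with ROSI, and Itga8 and Itgb8, because their levels differed between TBT and ROSI. Itga6, which differed more between the treatments than Itgb8, is named only. The sequences are from RefSeq on build GRCm38.p6, each read 5′ to 3′ on the strand of its gene, with every CG pair in capitals. Itga1 is at chr13:115101965-115102214 on the minus strand, Itga2 at chr13:114932101-114932350 on the minus strand, and Itga10 at chr3:96645334-96645583 on the plus strand. Itga11 is at chr9:62677605-62677854 on the plus strand, Itga8 at chr2:12301945-12302194 on the minus strand, and Itgb8 at chr12:119238277-119238526 on the minus strand. These windows lie upstream of the annotated transcript start, outside the transcript.
Itga1: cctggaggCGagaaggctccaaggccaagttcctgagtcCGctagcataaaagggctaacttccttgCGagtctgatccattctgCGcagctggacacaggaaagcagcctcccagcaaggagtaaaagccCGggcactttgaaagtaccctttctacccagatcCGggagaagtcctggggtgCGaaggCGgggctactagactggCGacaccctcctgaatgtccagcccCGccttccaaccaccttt
Itga2: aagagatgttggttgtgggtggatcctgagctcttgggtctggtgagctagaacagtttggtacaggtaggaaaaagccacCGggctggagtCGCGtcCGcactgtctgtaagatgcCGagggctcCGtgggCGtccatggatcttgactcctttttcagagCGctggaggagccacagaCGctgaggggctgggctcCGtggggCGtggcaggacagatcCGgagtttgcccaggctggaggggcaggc
Itga10: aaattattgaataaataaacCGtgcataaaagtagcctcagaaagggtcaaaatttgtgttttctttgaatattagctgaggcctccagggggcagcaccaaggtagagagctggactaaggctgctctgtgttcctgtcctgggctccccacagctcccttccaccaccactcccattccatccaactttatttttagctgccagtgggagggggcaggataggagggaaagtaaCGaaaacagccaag
Itga11: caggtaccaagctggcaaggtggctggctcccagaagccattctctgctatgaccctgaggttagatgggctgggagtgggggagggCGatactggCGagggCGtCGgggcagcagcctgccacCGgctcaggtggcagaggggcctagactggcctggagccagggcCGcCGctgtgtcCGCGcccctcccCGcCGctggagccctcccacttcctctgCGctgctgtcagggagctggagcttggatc
Itga8: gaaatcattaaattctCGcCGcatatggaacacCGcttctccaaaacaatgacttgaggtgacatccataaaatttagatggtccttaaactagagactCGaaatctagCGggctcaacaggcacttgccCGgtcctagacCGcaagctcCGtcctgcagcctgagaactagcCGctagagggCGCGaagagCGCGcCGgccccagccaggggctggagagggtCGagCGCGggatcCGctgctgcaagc
Itgb8: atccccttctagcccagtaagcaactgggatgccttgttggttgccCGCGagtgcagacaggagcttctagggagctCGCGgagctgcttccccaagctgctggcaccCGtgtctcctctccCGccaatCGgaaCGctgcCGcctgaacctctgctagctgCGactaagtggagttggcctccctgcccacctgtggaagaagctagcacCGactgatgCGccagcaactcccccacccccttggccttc

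The 6 windows held from 2 CG pairs (Itga10) to 18 (Itga8), with 10 in Itga1 and 12 in each of Itga2, Itga11 and Itgb8. The median over all 32851 RefSeq promoter windows was 6, with quartiles of 2 and 16. RefSeq windows were found for 31 of the 49 members (35 windows, median 10 CG pairs). On both strands the windows were searched for the nuclear receptor half-site AGGTCA, for the direct repeat of this half-site with 1 base between (which contains it), for the AP-1 motif TGANTCA, the GC box GGGCGG and the TATA motif TATAAA. None of the 5 was found in the 6 windows above. The half-site occurred in 1 of the 35 member windows (Cdh18) against 14% of all windows, and the spaced pair in 0 of 35 against 0.0335%. TGANTCA occurred in 1 of 35 (Itgax) against 6.75%, GGGCGG in 12 of 35 (34.3%) against 32.7%, and TATAAA in 0 of 35 against 12.4%.

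Libraries held 4027152 to 7474654 counts. Levels are CPM, counts scaled to the size of each library after TMM normalization in edgeR, and levels of different genes are compared only per kilobase of transcript (CPM per kb). A gene was called changed at an adjusted p (edgeR quasi-likelihood test, Benjamini-Hochberg over 12323 genes) under 0.05. Reads of 1504 olfactory and other sensory receptor genes, which stromal cells are not known to use, gave 530 ± 228 CPM in DMSO, 69.9 ± 6.85 with ROSI and 142 ± 36.0 with TBT (mean ± SD, n = 4), so low levels in DMSO were read against them. The TBT libraries were not alike: replicate 4 had a mean correlation of 0.953 with its own group and 0.961 with DMSO, while replicates 1 to 3 had 0.968 to 0.970 and 0.946 to 0.950. By other measures replicates 1 to 3 were the ones unlike the rest. The ribosomal RNA gene Rn45s took 0.399% to 0.670% of their counts, against 6.85% in TBT replicate 4 and 1.36% to 9.27% in DMSO and ROSI. GC-rich genes less GC-poor genes came to -0.55, -0.44 and -0.26 on the log2 scale in TBT replicates 1 to 3, against 0.11 in replicate 4 and -0.03 to 0.42 in DMSO and ROSI.

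Markers of the labelled stromal cells were present, with summed levels of 4704 to 5899 CPM in DMSO, 1976 to 2597 in ROSI and 3730 to 4309 in TBT over 12 genes, while 10 fat cell markers summed to 1146 to 2435, 5622 to 7179 and 2889 to 3958 CPM. Lpl, Cd36 and Fabp4 made up most of the fat cell sum. Of the 10 markers, 8 rose and 0 fell with ROSI by edgeR (9 higher and 0 lower at an unadjusted p under 0.05 and by DESeq2, 8 and 0 by limma), while 4 rose and 1 fell with TBT. Over all tested genes 10% were higher and 12.6% lower with ROSI, and 8.22% higher and 7.03% lower with TBT. The one that fell with TBT was Adipoq, at 10.7 CPM in DMSO and 2.30 with TBT (-2.17 ± 0.29, adjusted p = 0.00019), and Cebpa was -0.04 ± 0.20 with TBT (adjusted p = 0.90). The part of these markers and of the library differences in the results below was not tested, and in these bulk samples fewer cells of a type and less RNA per cell cannot be told apart. Thy1 and Col1a1 were detected, and 2 other stromal markers, Eng and Lepr, were low (means of 0.198 to 0.425 and 1.48 to 2.86 CPM).

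Per kb, the mean level in DMSO ran from 252 CPM for Itgb1 to 0.0295 CPM for Itga9 over the members with at least 10 counts. Itgb1, the β subunit shared by most matrix-binding integrins, had 252 CPM per kb in DMSO, 211 with ROSI and 243 with TBT, and made up 94.2%, 95.0% and 95.3% of the summed β level. The next β genes, Itgb3 and Itgb5, each held 1.4% to 2.2%. Among α genes Itga5, the fibronectin receptor subunit, came first with 34.4 ± 4.15% of the summed α level in DMSO, 43.7 ± 7.99% with ROSI and 40.4 ± 6.42% with TBT (SD, n = 4). Itgav, which binds vitronectin and latent TGF-β with several β partners, came second with 27.0 ± 0.69%, 28.2 ± 2.89% and 25.6 ± 3.97%. The gene at rank 3 was not the same in the 3 groups: Itga3 in DMSO (9.90 ± 0.89%), Itga6 in ROSI (8.84 ± 3.42%) and Itga8 in TBT (8.71 ± 2.26%). The SDs of these shares overlapped with those of the next gene, which was Itga11 in DMSO (9.24 ± 1.75%) and Itga3 in ROSI (6.15 ± 1.24%) and TBT (7.56 ± 1.85%). The levels themselves did not overlap by their SDs in ROSI, where Itga6 had 7.80 ± 1.28 and Itga3 5.56 ± 0.20 CPM per kb. Of the cadherins, Cdh11 held 77.5 ± 3.57%, 72.7 ± 4.91% and 82.1 ± 3.86% of the summed level, Cdh13 16.7 ± 2.64%, 21.0 ± 5.39% and 12.8 ± 2.82%, and Cdh2 3.01 ± 0.42%, 5.20 ± 0.68% and 3.77 ± 0.65%.

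**Figure D1:**
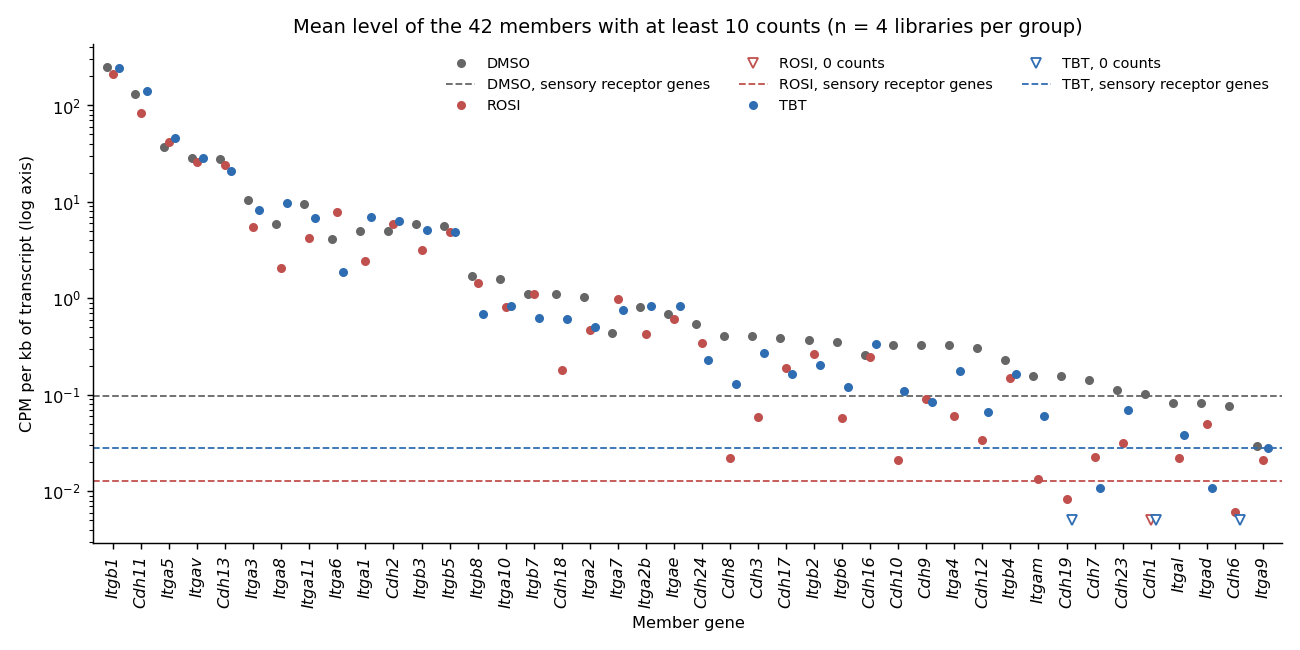
Mean level of each of the 42 members with at least 10 counts in CPM per kb of transcript (log axis), by group (n = 4 libraries), with the mean level of the sensory receptor genes of each group as a dashed line. Itgb1 and Cdh11 are at the top and the first 13 members are above 4 CPM per kb in at least 1 group, while the last members lie near or under the dashed lines; open triangles mark groups with 0 counts.

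In ROSI against DMSO, 12 of the 23 tested members (52.2%) were called, 2 higher and 10 lower. Over all tested genes the share called was 22.6%, with 10% higher and 12.6% lower. The libraries of the 2 groups did not overlap for 13 of the 23 members, against 28.3% of all tested genes. The median log2 fold change was -0.58 over the members and 0.01 over all tested genes. In TBT against DMSO, 6 of 23 (26.1%) were called, 2 higher and 4 lower, with a background of 15.2% (8.22% higher and 7.03% lower). Libraries did not overlap for 6 members against 15.7% of all genes, and the medians were -0.23 and -0.01. In TBT against ROSI, 10 of 23 (43.5%) were called, 8 higher and 2 lower, with a background of 23.9% (12.8% higher and 11.1% lower). There, 9 members did not overlap, against 20.7% of all genes, and the medians were 0.17 and 0.02. The 3 comparisons share their libraries, so their counts are not independent. Of the tested members, Itga4, Cdh18 and Cdh24 passed the filter only with the DMSO libraries, where they were highest, and these counts are therefore not support for a direction.

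**Figure D2:**
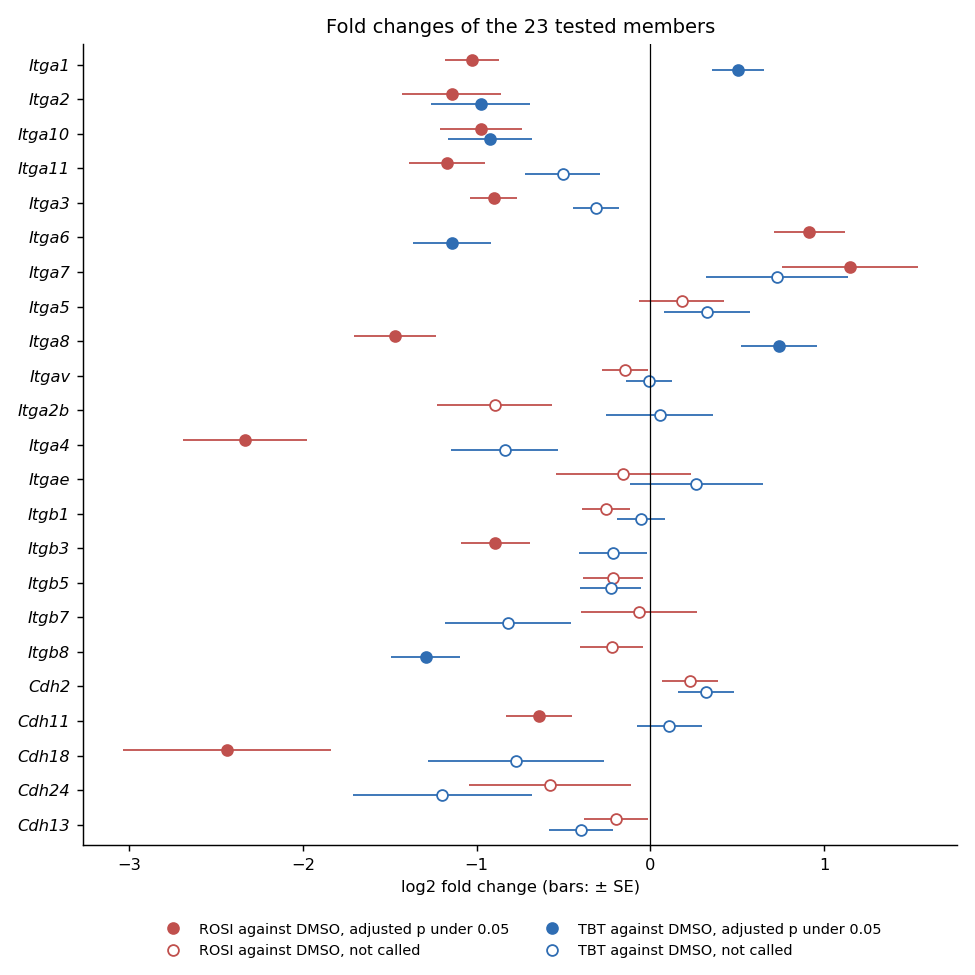
Log2 fold change of each of the 23 tested members in ROSI (red) and TBT (blue) against DMSO, with bars of 1 SE; filled points are calls at an adjusted p under 0.05. Itga1, Itga8 and Itga6 have filled points on opposite sides of 0, and Itga2 and Itga10 have filled points of both treatments on the lower side.

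All 4 collagen-binding α genes fell with ROSI, by 0.97 to 1.17 on the log2 scale, whereas with TBT they went apart: Itga1 rose, Itga2 and Itga10 fell and Itga11 was not called. Itga1, which pairs with β1 and prefers basement membrane collagen, measured 61.1, 63.6, 53.6 and 40.0 CPM in DMSO replicates 1 to 4, 24.6, 25.9, 29.8 and 26.3 in ROSI and 89.4, 74.5, 77.9 and 67.2 in TBT. No library of 1 group reached into another: all ROSI libraries were the lowest and all TBT libraries the highest. Its log2 fold change was -1.03 ± 0.15 (SE, adjusted p = 1e-04) in ROSI against DMSO, 0.51 ± 0.15 (adjusted p = 0.030) in TBT against DMSO and 1.53 ± 0.15 (adjusted p = 3.2e-06) in TBT against ROSI. The rise over DMSO lost its call without DMSO replicates 3 or 4 or TBT replicates 1, 2 or 3 (adjusted p up to 0.098), with GC-corrected offsets (0.36, adjusted p = 0.089), with upper-quartile factors (0.058) and with only the 2 groups compared (0.065).

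Itga11, a receptor for fibrillar collagen on fibroblasts, measured 52.5, 41.6, 46.0 and 50.7 CPM in DMSO, 16.3, 13.6, 29.8 and 24.5 with ROSI and 36.1, 25.5, 43.6 and 29.4 with TBT. ROSI lay under DMSO in every library, and TBT overlapped both. It fell by 1.17 ± 0.22 on the log2 scale in ROSI (adjusted p = 0.00076), and TBT against DMSO was -0.50 ± 0.21 (adjusted p = 0.11). TBT was 0.67 ± 0.22 above ROSI (adjusted p = 0.037); the call was lost without any 1 of DMSO replicate 3, ROSI replicates 1 and 2 or TBT replicates 1 and 3 (up to 0.15), with only the 2 groups compared (0.082) and without DMSO replicates 1 and 2 together (0.064).

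Itga2, the collagen receptor subunit of platelets and epithelia, measured 7.84, 9.12, 7.18 and 5.06 CPM in DMSO, 4.26, 2.53, 2.59 and 4.01 with ROSI and 4.29, 4.63, 3.21 and 2.39 with TBT. Itga10, the collagen receptor subunit known from cartilage, measured 8.55, 6.08, 7.60 and 9.80 CPM in DMSO, 4.01, 2.84, 5.17 and 4.21 with ROSI and 4.47, 4.44, 4.28 and 3.70 with TBT. For both genes every DMSO library was above every treated library, and ROSI and TBT overlapped. The log2 fold changes of Itga2 were -1.14 ± 0.29 in ROSI (adjusted p = 0.0071) and -0.98 ± 0.28 in TBT (adjusted p = 0.029). Those of Itga10 were -0.97 ± 0.24 (adjusted p = 0.0063) and -0.92 ± 0.24 (adjusted p = 0.018). TBT against ROSI was not called for either, with 95% intervals of -0.52 to 0.86 for Itga2 and -0.53 to 0.63 for Itga10. Per kb, Itga2 in DMSO was 10.6 times and Itga10 16.4 times the mean sensory receptor gene, whose level fell 7.47-fold with ROSI and 3.46-fold with TBT. Without DMSO replicates 1 and 2, which had the most sensory receptor reads, Itga2 was -0.89 in ROSI (adjusted p = 0.11) and -0.75 in TBT (0.23), and Itga10 was -1.04 in TBT (0.060). The TBT call of Itga2 also ended without DMSO replicate 1, 2 or 3 or TBT replicate 1 or 3 (up to 0.088), and that of Itga10 without DMSO replicate 4 (0.055).

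Of the 3 laminin-binding α genes, Itga6 and Itga7 rose with ROSI while Itga3 fell. Itga6, which pairs with β1 or β4, measured 17.8, 18.0, 18.4 and 17.4 CPM in DMSO, 29.6, 40.6, 35.4 and 28.9 with ROSI and 6.08, 11.0, 4.71 and 10.7 with TBT. The groups did not overlap: ROSI was the highest and TBT the lowest in every library. It rose by 0.91 ± 0.20 with ROSI (adjusted p = 0.0033) and fell by 1.14 ± 0.23 with TBT (adjusted p = 0.0041), and TBT was 4.16-fold under ROSI (log2 fold change -2.06 ± 0.22, adjusted p = 6.3e-06). All 3 calls held in every alternative analysis and with each library left out. Itga3, a laminin receptor subunit of epithelial and stromal cells, measured 53.9, 53.6, 46.0 and 48.4 CPM in DMSO, 28.3, 26.1, 26.8 and 26.9 with ROSI and 33.2, 38.8, 41.7 and 48.5 with TBT. Its ROSI libraries lay under all others and TBT overlapped DMSO. It fell by 0.90 ± 0.13 with ROSI (adjusted p = 1e-04), and TBT was 0.59 ± 0.14 above ROSI (adjusted p = 0.0054). TBT against DMSO was -0.31 ± 0.13 (adjusted p = 0.11), and 0.026 without TBT replicate 4.

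Itga7, the laminin receptor subunit of muscle, measured 1.66, 1.17, 2.07 and 2.05 CPM in DMSO, 3.76, 5.21, 4.01 and 2.81 with ROSI and 2.68, 1.16, 2.78 and 5.44 with TBT. All ROSI libraries were above DMSO, and TBT spanned both groups. It rose by 1.15 ± 0.39 with ROSI (adjusted p = 0.043), a call that ended in 8 of the 12 analyses with a library left out (DMSO replicates 1 to 4, ROSI replicates 1 to 3 or TBT replicate 1; adjusted p up to 0.13), with upper-quartile factors (0.051) and without DMSO replicates 1 and 2 together (0.23). The muscle regulators Myod1 and Myog had 0 counts in all libraries, and the 8 muscle markers summed to 1.58 to 3.33 CPM in DMSO, 0.602 to 1.29 in ROSI and 0.214 to 1.07 in TBT.

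Among the subunits that recognise the sequence RGD in fibronectin, vitronectin and related proteins, the most abundant, Itga5 and Itgav, were not called in any comparison, and Itga8 had the largest log2 difference between the 2 treatments of the 23 tested members. Itga8, which with β1 binds nephronectin, measured 30.6, 32.1, 31.5 and 42.0 CPM in DMSO, 10.5, 9.16, 18.2 and 10.6 with ROSI and 69.7, 65.2, 58.2 and 34.8 with TBT. ROSI was the lowest in every library; TBT replicates 1 to 3 were above all DMSO libraries, and TBT replicate 4 lay within their range. The log2 fold change was -1.47 ± 0.24 in ROSI (adjusted p = 2e-04), 0.74 ± 0.22 in TBT (adjusted p = 0.031) and 2.21 ± 0.24, or 4.62-fold, in TBT against ROSI (adjusted p = 5.9e-06). The rise over DMSO lost its call without any 1 of DMSO replicates 1 to 3 or TBT replicates 1 to 3 (up to 0.10), with GC-corrected offsets (0.61, adjusted p = 0.054) and without DMSO replicates 1 and 2 together (0.62, adjusted p = 0.23). Without strand, reads of Itga8 and of E030013I19Rik, which shares 372 exon bases on the opposite strand, cannot be told apart. E030013I19Rik was at 1.44, 0.470 and 0.744 CPM. Other called members share exon bases too. Itga10 shares 1739 with Gm42957 and Itga1 451 with Gm49395, on the same strand. Itga4 shares 127 with Cerkl and Itga7 9 with Mettl7b, on the opposite strand. The part of these overlaps in the results was not tested.

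Itga5 had 162 ± 38.3 CPM in DMSO, 184 ± 59.6 with ROSI and 203 ± 57.8 with TBT (SD, n = 4), and Itgav 202 ± 29.7, 182 ± 20.4 and 201 ± 16.9. The 95% intervals for ROSI against DMSO were -0.38 to 0.74 for Itga5 and -0.44 to 0.15 for Itgav, and those for TBT against DMSO -0.23 to 0.89 and -0.30 to 0.29. Itga2b, the platelet subunit that pairs with β3, measured 2.85, 2.11, 3.45 and 2.69 CPM in DMSO, 1.25, 1.11, 1.94 and 1.60 with ROSI and 3.93, 2.70, 2.14 and 2.83 with TBT. All ROSI libraries were the lowest, and DMSO and TBT overlapped. TBT was 0.95 ± 0.33 above ROSI (adjusted p = 0.047), a call that ended in 11 of 12 analyses with a library left out (all but TBT replicate 4; up to 0.17) and in 7 of 10 other alternatives, and ROSI against DMSO was -0.90 ± 0.33 (adjusted p = 0.062). The 8 platelet precursor markers summed to 4.51 to 6.01 CPM in DMSO, 4.42 to 5.30 in ROSI and 2.68 to 4.28 in TBT, with Pf4 and Gp6 at 0 counts in ROSI and Gp9 at 0 in TBT. Gp1ba had means of 2.51, 3.23 and 2.27 CPM and Gp1bb 0.890, 1.17 and 0.147 in DMSO, ROSI and TBT. These were higher in ROSI than in DMSO, while the rest of the markers were lower.

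Itga4, a receptor subunit for Vcam1 and fibronectin, measured 3.33, 3.98, 2.90 and 2.53 CPM in DMSO, 0.501, 0.790, 0.647 and 0.401 with ROSI and 1.79, 1.74, 1.71 and 1.74 with TBT, from 68, 14 and 35 counts per group. The 3 groups did not overlap, with DMSO the highest and ROSI the lowest. It fell by 2.34 ± 0.36 with ROSI (adjusted p = 0.00012), and TBT was 1.50 ± 0.39 above ROSI (adjusted p = 0.011) and -0.84 ± 0.31 against DMSO (adjusted p = 0.072; 0.038 with GC-corrected offsets). Per kb it was 3.37, 4.63 and 6.38 times the sensory receptor level of DMSO, ROSI and TBT, so the level of Itga4 and the background moved in the same order. The part of those reads in the result was not tested. Without DMSO replicates 1 and 2 the ROSI call held. Its relative Itga9, a receptor subunit for tenascin and Vcam1, had 6, 4 and 4 counts and was not tested.

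Of the α subunits of white blood cells, Itgae, known from T cells of mucosa, was the 1 tested: it had 2.66 ± 0.59 CPM in DMSO, 2.36 ± 1.21 with ROSI and 3.22 ± 0.81 with TBT (SD, n = 4) and was not called. Itgad, Itgal and Itgam had 11, 17 and 22 counts in all. Their partner Itgb2 had 24, 17 and 12 counts in DMSO, ROSI and TBT. The 12 macrophage and leukocyte markers summed to 24.2 to 27.1 CPM in DMSO, 20.4 to 31.6 in ROSI and 18.8 to 34.8 in TBT. Tyrobp, an adaptor of macrophages and other myeloid cells, had 0 counts throughout, and most of the sum was Cd14 and Cd68.

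**Figure D3:**
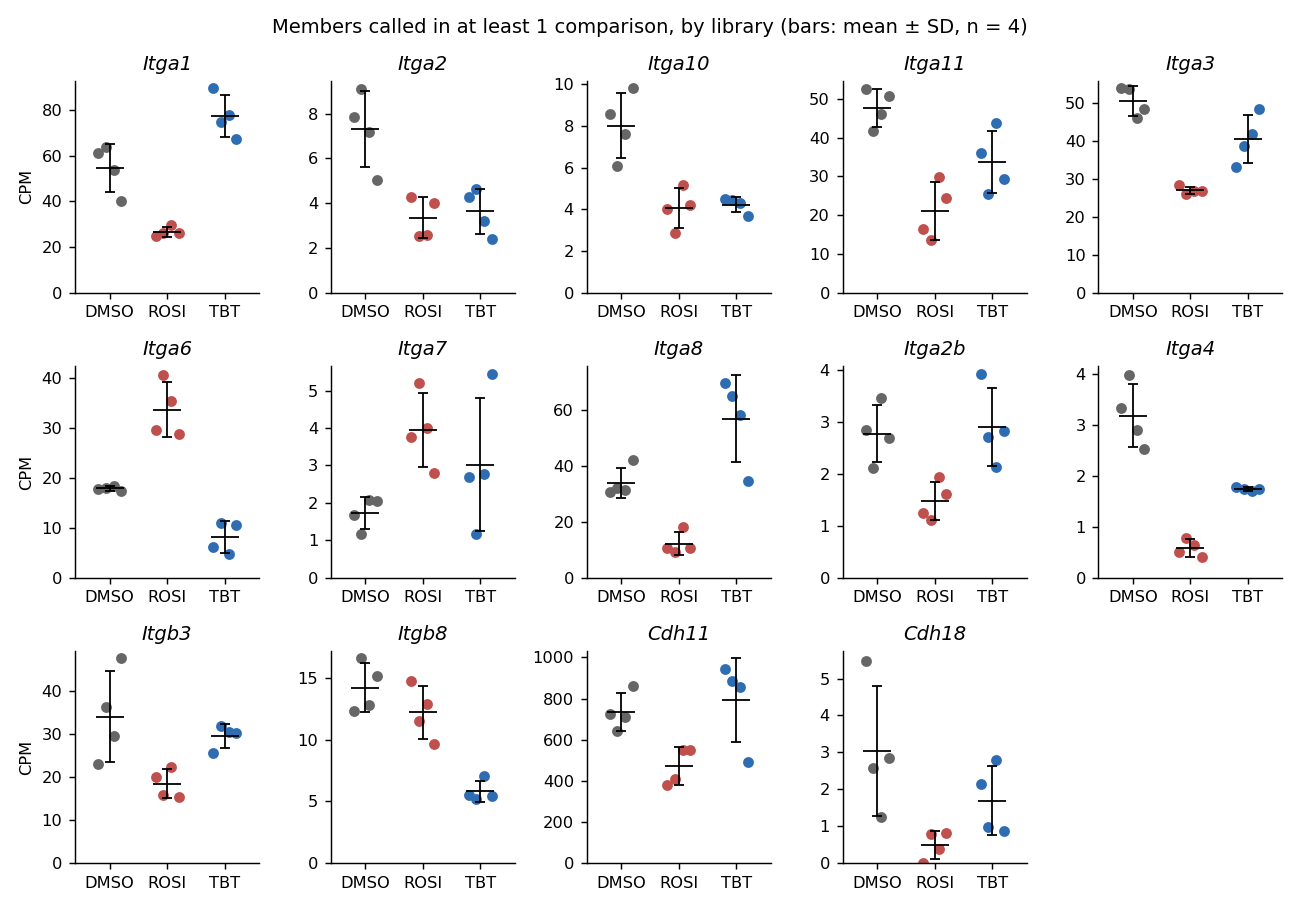
Level in CPM (axis from 0) of the 14 members called in at least 1 comparison, 1 point per library, with mean ± SD (n = 4). ROSI is lowest in Itga1, Itga8 and Itga3 and highest in Itga6, TBT is lowest in Itgb8 and Itga6, and the lone low TBT point in Itga8 and Cdh11 is replicate 4.

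Of the 5 tested β subunits 1 was called in each treatment against DMSO, near the share called over all genes (22.6% with ROSI and 15.2% with TBT): Itgb3 fell with ROSI and Itgb8 fell with TBT. Itgb8, which pairs with αv and is known for releasing active TGF-β, measured 12.4, 16.6, 12.8 and 15.2 CPM in DMSO, 14.8, 11.5, 12.9 and 9.63 with ROSI and 5.54, 5.21, 7.06 and 5.44 with TBT. Every TBT library was under every other library, and DMSO and ROSI overlapped. It fell by 1.29 ± 0.20 with TBT, a 2.45-fold lower level (adjusted p = 0.00067), and TBT against ROSI was -1.07 ± 0.20 (adjusted p = 0.0012). ROSI against DMSO was -0.22 (95% interval -0.64 to 0.19). Both TBT calls held in every alternative and with each library left out.

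Itgb3, which pairs with αv and with the platelet subunit, measured 23.0, 36.3, 29.6 and 47.7 CPM in DMSO, 20.1, 15.8, 22.4 and 15.4 with ROSI and 25.6, 31.8, 30.6 and 30.2 with TBT. All ROSI libraries were lower than the rest, while TBT lay within the DMSO range. It fell by 0.89 ± 0.20 with ROSI (adjusted p = 0.0033), and TBT was 0.68 ± 0.20 above ROSI (adjusted p = 0.023; up to 0.073 without ROSI replicate 2 or 4 or TBT replicate 2 or 3). Itgb1 had 963 ± 167, 807 ± 45.5 and 927 ± 101 CPM, Itgb5 18.7 ± 2.35, 16.1 ± 3.30 and 16.0 ± 1.45, and Itgb7, a partner of α4 and αE, 2.98 ± 0.79, 2.97 ± 0.90 and 1.70 ± 0.65 in DMSO, ROSI and TBT (SD, n = 4). None of the 3 was called, and the interval of Itgb1 was -0.57 to 0.06 for ROSI and -0.37 to 0.26 for TBT against DMSO. Itgb4 and Itgb6, subunits of epithelia, had 74 and 54 counts in all and were not tested. Of the epithelial markers, Cldn4 had 0 counts in all libraries and Krt8 0 in ROSI and TBT, and Cd24a alone made up most of the sum of 191 to 253, 150 to 296 and 177 to 571 CPM.

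Cadherin-11 (Cdh11), the main cadherin of stromal and bone-forming cells, fell with ROSI and was not called with TBT. It measured 726, 641, 709 and 862 CPM in DMSO, 379, 408, 550 and 548 with ROSI and 945, 883, 854 and 489 with TBT. ROSI lay under DMSO in every library; TBT replicates 1 and 2 were above all DMSO libraries, replicate 3 was within the DMSO range and replicate 4 was within the ROSI range. It fell by 0.64 ± 0.19 with ROSI (adjusted p = 0.020); this call was lost without DMSO replicate 4, ROSI replicate 1 or ROSI replicate 2 (up to 0.076), and without DMSO replicates 1 and 2 together (0.056). TBT was 0.11 ± 0.19 against DMSO (adjusted p = 0.71, 95% interval -0.31 to 0.54) and 0.75 ± 0.19 above ROSI (adjusted p = 0.0093).

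Cdh18, a type II cadherin known from brain, measured 5.46, 2.57, 1.24 and 2.84 CPM in DMSO, 0, 0.790, 0.388 and 0.802 with ROSI and 2.14, 0.965, 2.78 and 0.870 with TBT. The 0 in ROSI replicate 1 allows up to 3 counts, or 0.752 CPM. ROSI was lower than the other groups in every library, and DMSO and TBT overlapped. It fell by 2.44 ± 0.60 with ROSI (adjusted p = 0.0065), and TBT was not called against DMSO (-0.77 ± 0.51, adjusted p = 0.30) or ROSI (1.66 ± 0.65, adjusted p = 0.071, and 0.029 without TBT replicate 4). Per kb it was 11.4, 13.9 and 22.0 times the sensory receptor level of DMSO, ROSI and TBT, and without DMSO replicates 1 and 2 the fall with ROSI was no longer called (adjusted p = 0.087). The nerve marker Snap25 had means of 3.28, 0.571 and 1.79 CPM, and the 8 nerve and glia markers summed to 4.91 to 7.27 CPM in DMSO, 2.61 to 3.36 in ROSI and 2.17 to 7.27 in TBT.

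Cadherin-2 (Cdh2, N-cadherin) had 24.3 ± 3.66 CPM in DMSO, 28.5 ± 2.17 with ROSI and 30.4 ± 6.08 with TBT (SD, n = 4), and was not called. Its adjusted p in TBT against DMSO was 0.18, and 0.044 without TBT replicate 4. Cadherin-13 (Cdh13), a cadherin held by a lipid anchor that binds adiponectin, had 127 ± 14.7, 110 ± 31.9 and 96.0 ± 12.3 CPM, with TBT against DMSO at -0.40 ± 0.19 (adjusted p = 0.15, and 0.048 without ROSI replicate 2). Cdh24 had 1.91 ± 0.64, 1.19 ± 0.81 and 0.80 ± 0.39 CPM and was not called. In TBT against DMSO with all 12 libraries, 0 of the 5 tested cadherins were called by edgeR, against 15.2% of all tested genes. At an unadjusted p under 0.05, 2 were lower, and DESeq2 and limma on the deposited log2 values called 0 of these 5. In ROSI against DMSO, 2 of 5 were called lower and 0 higher by edgeR, against 12.6% and 10% of all tested genes. Of the 2, Cdh18 passed the filter only with the DMSO libraries, where it was highest. The number higher was also 0 of the 5 at an unadjusted p under 0.05, by DESeq2 and by limma. DESeq2, which filters in its own way, tested 36 members with TBT and 41 with ROSI. Over all cadherins it called 1 lower with TBT and 6 lower with ROSI, so those calls include cadherins outside the 5. The share that DESeq2 called lower over all genes is not given here, so these numbers have no background beside them.

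The other 18 cadherins were not tested, and at most 65 counts were found for any of them. They were the epithelial cadherins Cdh1 and Cdh3, the type II genes Cdh6, Cdh7, Cdh8, Cdh9, Cdh10, Cdh12 and Cdh19, the kidney, intestine and hair cell genes Cdh16, Cdh17 and Cdh23, and the 6 under 10 counts. Together they gave 14.2 ± 4.87 CPM in DMSO, 2.92 ± 0.42 with ROSI and 5.49 ± 1.34 with TBT (SD, n = 4), which is 4.86-fold and 2.58-fold lower than DMSO. The sensory receptor genes, per kb, were 7.47-fold and 3.46-fold lower. Cdh1 (E-cadherin) had 10 counts in DMSO and 0 in both treatments, where 0 allows up to 0.130 CPM in ROSI and 0.150 in TBT over the group, counting error only; its DMSO level was 1.06 times that of a mean sensory receptor gene. Cdh6 had 13, 1 and 0 counts, Cdh7 13, 2 and 1, Cdh19 12, 1 and 0, and each was within 0.795 to 1.61 times the sensory receptor level in DMSO. Cdh8, Cdh9, Cdh10 and Cdh12 were 3.19 to 4.20 times that level in DMSO, and Cdh3 was 4.20 times. Cdh16 differed from this order, with 17 counts in DMSO, 17 with ROSI and 19 with TBT. Cdh17 had 29, 14 and 12 counts, and Cdh23 28, 8 and 15. The endothelial gene Cdh5 was among those under 10 counts, and the endothelial markers Tie1 and Cldn5 had 0 counts in all libraries, with 10 markers summing to 10.9 to 13.3, 8.27 to 12.2 and 6.95 to 10.3 CPM.

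Sorting the tested members by their calls gave 5 patterns with more than 1 comparison called. The share of these patterns over all tested genes is not given here, so the patterns only describe the members. Itga1 and Itga8 were lower with ROSI and higher with TBT, and Itga6 was higher with ROSI and lower with TBT. TBT against ROSI was also called for each, and its sign follows from the opposite changes against DMSO. The rises of Itga1 and Itga8 with TBT lost their calls in 5 and 6 of 12 analyses with a library left out. GC-corrected offsets ended both calls too. Itga2 and Itga10 were lower with both treatments. Itga11, Itga3, Itga4, Itgb3 and Cdh11 were lower with ROSI, not called with TBT against DMSO, and higher in TBT than in ROSI. Of these, Itga4 passed the filter only with the DMSO libraries, where it was highest. Itgb8 was lower with TBT against both DMSO and ROSI. Itga2b, Itga7 and Cdh18 had 1 call each. The 9 members with no call were Itga5, Itgav, Itgae, Itgb1, Itgb5, Itgb7, Cdh2, Cdh24 and Cdh13; these include Itgb1, Itga5, Itgav and Cdh13, which are 4 of the 5 most abundant members per kb.

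The proteins that integrins bind were lower with ROSI in 7 of the 11 tested genes of a list of 17, against 12.6% lower over all genes, and 0 were higher by edgeR, by DESeq2, by limma or at an unadjusted p under 0.05; the list median was -0.91 against 0.01 for all genes. With TBT 2 rose and 3 fell, against 8.22% and 7.03% of all genes, with a median of -0.05. Without DMSO replicates 1 and 2 the number that fell was 0, where 207 of 12747 tested genes fell. Spp1 (osteopontin), a ligand of αv and α8, had 404 ± 90.1 CPM in DMSO, 92.8 ± 14.5 with ROSI and 192 ± 49.8 with TBT (SD, n = 4). It fell by 2.12 ± 0.21 with ROSI (adjusted p = 1.8e-06) and by 1.07 ± 0.20 with TBT (adjusted p = 0.0026; 0.053 without DMSO replicates 1 and 2). Npnt (nephronectin), the ligand of α8β1, had 31.1 ± 3.65, 13.8 ± 3.35 and 30.6 ± 1.90 CPM; it fell by 1.15 ± 0.17 with ROSI (adjusted p = 7.7e-05) and was -0.02 ± 0.16 with TBT (adjusted p = 0.95). Fbn1 (fibrillin-1) fell by 0.97 ± 0.15 with ROSI (adjusted p = 0.00012) and by 0.51 ± 0.15 with TBT (adjusted p = 0.028). Postn (periostin) rose with TBT, from 44.4 ± 9.53 to 103 ± 32.0 CPM (1.23 ± 0.21, adjusted p = 0.0015), and was -0.05 ± 0.21 with ROSI. Tgfbi rose with TBT by 1.30 ± 0.36 (adjusted p = 0.024). The TBT call of Fbn1 ended without DMSO replicate 4 or TBT replicate 1 or 2 (up to 0.084), with GC-corrected offsets (0.071) and without DMSO replicates 1 and 2 together (0.054), and that of Tgfbi without DMSO replicates 2, 3 or 4 or TBT replicates 1, 2 or 3 (up to 0.073) and with only the 2 groups compared (0.051). TBT against ROSI called 7 of the 11 higher, against 12.8% of all genes, and 0 lower, with 0 lower also at an unadjusted p under 0.05 and by DESeq2 and limma.

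The adaptors and actin linkers that join integrins to the cytoskeleton were called in 13 of 32 tested genes with ROSI, 12 lower and 1 higher (Git1, named after its value was seen), against 12.6% lower and 10% higher over all genes, with a median of -0.33. The call of Git1 ended without DMSO replicate 3 or 4 or ROSI replicate 1 or 2. Without DMSO replicates 1 and 2, 4 genes of the list were lower and 0 higher with ROSI, where 1015 of 12747 tested genes were lower and 717 higher. With TBT 5 were lower and 0 higher (7.03% and 8.22% over all genes), and the median was -0.12; at an unadjusted p under 0.05, 5 were higher, and DESeq2 called 4 higher and limma 1. Tns3 (tensin-3) had 308 ± 33.9 CPM in DMSO, 185 ± 22.9 with ROSI and 361 ± 30.1 with TBT. It fell by 0.73 ± 0.13 with ROSI (adjusted p = 0.00041) and was 0.23 ± 0.13 with TBT (adjusted p = 0.22). Actn1 (α-actinin-1) fell by 0.63 ± 0.11 with ROSI (adjusted p = 0.00052). Zyx (zyxin) fell by 0.64 ± 0.17 with ROSI (adjusted p = 0.0094) and by 0.74 ± 0.17 with TBT (adjusted p = 0.0083), and without DMSO replicates 1 and 2 neither was called (0.093 and 0.086). Tln1 (talin-1), which binds the β tail directly, fell by 0.33 ± 0.12 with ROSI (adjusted p = 0.047) and by 0.39 ± 0.12 with TBT (adjusted p = 0.034). Leaving out a library ended the call of Tln1 in 10 of 12 analyses with ROSI and in 6 with TBT, and 5 of the 11 other alternatives ended each. The number lower with TBT was 10 without TBT replicate 4, where 2031 of 12635 tested genes were lower. It was 0 without DMSO replicates 1 and 2, where 207 of 12747 were lower.

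The catenins and other junction partners of cadherins were mostly not called: with ROSI 1 of 13 tested genes was lower (Ctnnd1, p120-catenin, -0.46 ± 0.16, adjusted p = 0.047), against 12.6% of all genes, and 0 were higher by edgeR, by DESeq2, by limma or at an unadjusted p under 0.05. With TBT 2 were higher and 2 lower, against 8.22% and 7.03% of all genes. Without DMSO replicates 1 and 2 the numbers were 0 in both treatments, where 1732 of 12747 tested genes were called with ROSI and 371 with TBT. Ctnnb1 (β-catenin) had 717 ± 100 CPM in DMSO, 774 ± 83.5 with ROSI and 997 ± 189 with TBT, and rose with TBT by 0.48 ± 0.15 (adjusted p = 0.044). Pkp4 rose by 0.47 ± 0.14 (adjusted p = 0.038), and Pvrl2 (nectin-2) fell by 0.63 ± 0.20 (adjusted p = 0.039) with TBT. Jup (plakoglobin) was -0.65 ± 0.28 with ROSI (adjusted p = 0.11; 0.038 with only the 2 groups compared and 0.047 with GC-corrected offsets). The calls of Ctnnd1, Pkp4, Ctnnb1 and Pvrl2 ended in 9, 7, 8 and 6 of the 12 analyses with a library left out, and in 3, 4, 5 and 4 of the 11 other alternatives.

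Of the 6 transcription factors known to repress cadherin genes, 1 fell with ROSI (Zeb1) and 1 rose with TBT (Zeb2). Over all genes 12.6% were lower with ROSI and 8.22% higher with TBT. With so few genes, 1 call in each treatment cannot be told from these shares. Zeb1 had 381 ± 78.2 CPM in DMSO, 196 ± 34.7 with ROSI and 413 ± 130 with TBT, and fell by 0.96 ± 0.21 with ROSI (adjusted p = 0.0030). Zeb2 had 254 ± 13.3, 260 ± 50.9 and 435 ± 132 CPM, and rose by 0.78 ± 0.20 with TBT (adjusted p = 0.015; up to 0.057 without TBT replicate 1 or 3, and 0.11 without DMSO replicates 1 and 2). Snai1 was 0.71 ± 0.28 with TBT (adjusted p = 0.096; 0.033 without a filter and 0.0094 with GC-corrected offsets), Snai2 0.26 ± 0.15 with ROSI (adjusted p = 0.25) and Twist2 0.46 ± 0.22 with TBT (adjusted p = 0.16).

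**Figure D4:**
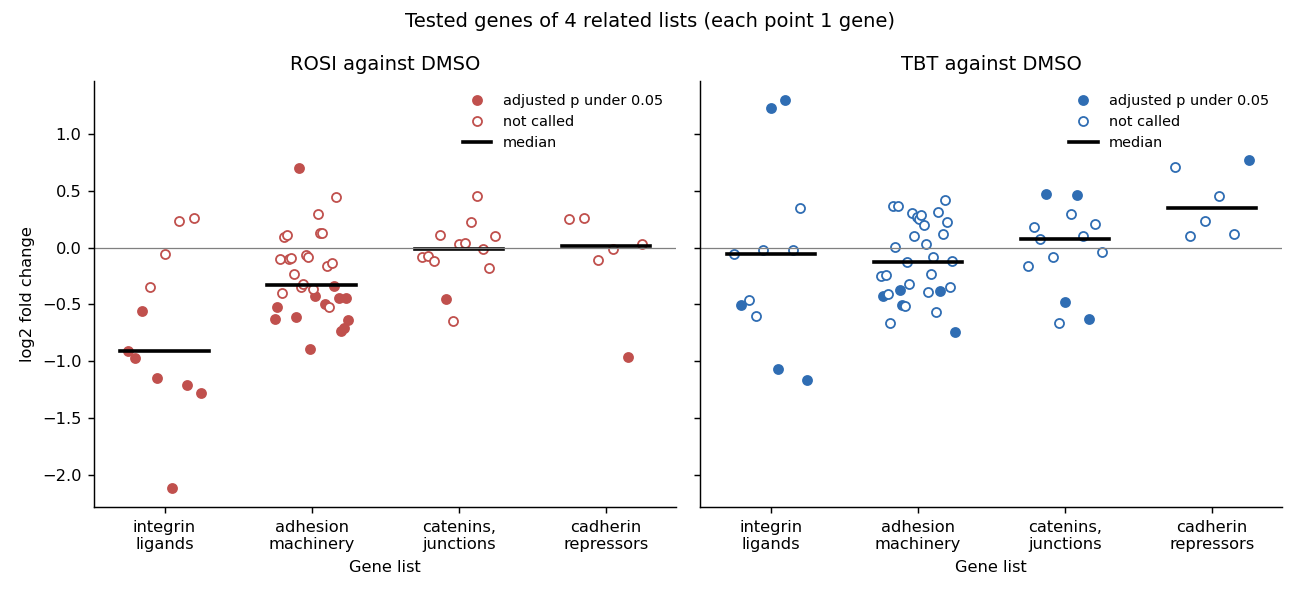
Log2 fold change of every tested gene of 4 related lists, with ROSI against DMSO at the left and TBT against DMSO at the right; filled points are calls at an adjusted p under 0.05 and black lines are list medians. The ligand median is -0.91 with ROSI and -0.05 with TBT, and the catenin list is centred near 0 in both.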

How the data were processed

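After ribosomal RNA was depleted, 12 libraries were sequenced without strand on the SOLiD platform (single reads of 50 nt), per the labels' protocols. The authors deposited raw counts for each gene symbol, and regularized-log values (log2) as a second table. Build mm9, FastQC, SAMtools and DESeq2 are named per the submitters' processing notes; aligner, counter and annotation: not given in the sources used here. Columns were matched to groups by library title.

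Counts were tested in R 4.3.3 with edgeR 4.0.16: filterByExpr by group with its minimum count of 10, TMM factors, and 1 quasi-likelihood model over all 12 libraries without covariates, with Benjamini-Hochberg adjustment over 12323 genes and a threshold of 0.05. The SE was taken as log2 fold change over the square root of F. Transcript lengths came from GENCODE M21 (GRCm38, not the files' build), which gave one for 98.5% of symbols, so levels per kb are approximate. Alternatives used DESeq2 1.42.0, limma 3.58.1 on the deposited log2 values and 9 other settings, and each library was left out in turn. The tests were checked on simulated data, drawn with the same spread for all genes. Their libraries differed only in size and in the planted changes. The check therefore does not cover the GC, sensory receptor and TBT replicate differences seen here.

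Members were named if they had at least 10 counts, with full values for those called in at least 1 comparison. In each related list, the 3 genes with the smallest p in ROSI and the 3 in TBT against DMSO were named, except 1 gene that is not reported here. Members and lists were chosen with earlier results of these data known. No 2 libraries were copies: the lowest chi-square per degree of freedom between libraries of a group was 4.66.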

Additional observations from a re-analysis of the deposited data

Results flagged for a closer look

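In 4 of 69 sets of 4 libraries (1 gene in 1 group), a single library lay apart from the other 3 beyond the limit of Dixon's test; chance alone gives about 1 in 20. Itga5 was at 95.0 CPM in ROSI replicate 2, against 204 to 219 in the other ROSI libraries. Itga8 was at 42.0 CPM in DMSO replicate 4, against 30.6 to 32.1 in the other DMSO libraries, and at 18.2 CPM in ROSI replicate 3, against 9.16 to 10.6. Cdh24 was at 0.967 CPM in DMSO replicate 3, against 2.14 to 2.34.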

How the results depend on the processing

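Most alternatives that end the call of a named gene stand beside its result; those of the replicate block stand here. Values below are numbers of genes or members past the threshold, or log2 fold changes; where they moved, the cause was not tested unless fewer genes or libraries entered.

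Without a filter on low counts, ROSI against DMSO called 19 members, 17 of them lower, and 2352 genes lower, and TBT against DMSO called 7 members lower, with all 49 members tested. DESeq2 called 16 members lower with ROSI. With upper-quartile factors, 1 member was higher in each treatment against DMSO. A mean of at least 5 CPM left 15 members tested and 1 higher with ROSI. With only the 2 groups compared, TBT against DMSO called 1199 genes, 616 higher, and 1 member higher, and TBT against ROSI called 5 members higher. GC-corrected offsets, chosen after seeing the data, left 0 members higher with TBT. Leaving out DMSO replicates 1 and 2, also chosen after seeing the data, left 1732 genes with ROSI (717 higher, 1015 lower; 1 member higher) and 371 with TBT (164 higher, 207 lower; 3 members, 1 higher and 2 lower). Leaving out Rn45s changed no count of members.

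With the replicate number as a block, ROSI against DMSO called 1 member higher, and TBT against DMSO called 1160 genes (630 higher, 530 lower) and 1 member higher. Under the block, the adjusted p was 0.065 for Itga7 and 0.051 for Cdh11 in ROSI against DMSO, 0.075 for Itga8 in TBT against DMSO and 0.079 for Itga2b in TBT against ROSI, so these calls ended. In the related lists, the block ended the calls of Tln1 (0.11), Ctnnd1 (0.071) and Git1 in ROSI against DMSO. In TBT against DMSO, it ended those of Tln1 (0.082), Pkp4 (0.085), Ctnnb1 (0.076) and Pvrl2 (0.081). The deviations of same-numbered libraries had correlations of -0.43 to 0.14, over 0.1 in 2 of 12 pairs, so no pairing by number was seen. A weak effect shared by number could give such values too, so they cannot exclude a pairing, and the labels state none.

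With each library left out in turn, ROSI against DMSO called 2219 to 3537 genes (939 to 1625 higher, 1278 to 1912 lower) and 10 to 12 members (1 to 2 higher, 9 to 10 lower). TBT against DMSO called 1019 to 4124 genes (527 to 2093 higher, 484 to 2031 lower) and 3 to 8 members (0 to 3 higher, 3 to 5 lower), with the highest values without TBT replicate 4 and the fewest members without DMSO replicate 3 or TBT replicate 3. TBT against ROSI called 1732 to 4826 genes (949 to 2520 higher, 783 to 2306 lower) and 7 to 11 members (5 to 9 higher, 2 lower).

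Reversed signs were confined to uncalled values near 0. In ROSI against DMSO, Twist2 became 0.0047 with DESeq2 size factors, 0.017 without a filter, 0.015 in DESeq2 and 0.30 without DMSO replicates 1 and 2; Pvrl2 became 0.0098, 0.0093 and 0.0067 without a filter, in DESeq2 and with GC-corrected offsets; Postn 0.044 with GC-corrected offsets and 0.17 without DMSO replicates 1 and 2, where Itgav was 0.041. In TBT against DMSO, Itgav became 0.0023 without a filter, 0.0086 in DESeq2, 0.011 in limma and 0.16 without DMSO replicates 1 and 2; Itga2b -0.018 with upper-quartile factors and -0.086 without those DMSO libraries, where Npnt was 0.068 and Zeb1 -0.030. With GC-corrected offsets, Itgb5 was 0.022, Npnt 0.013 and Snai2 -0.045. In TBT against ROSI, Itgb5 became 0.00092 with the replicate block and 0.23 with GC-corrected offsets, where Tln1 was 0.17, Zyx 0.11 and Jup 0.23.

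With a library left out, the signs of these uncalled log2 fold changes were not constant. In ROSI against DMSO, the ranges were Itgb7 -0.22 to 0.11, Postn -0.16 to 0.10, Twist2 -0.19 to 0.15, Itgae -0.52 to 0.15, Pvrl2 -0.063 to 0.091, Tgfbi -0.034 to 0.67 and Zeb2 -0.033 to 0.14. In TBT against DMSO, the ranges were Itgav -0.098 to 0.061, Itga2b -0.13 to 0.18, Npnt -0.084 to 0.062, Itgb1 -0.15 to 0.046, Zeb1 -0.0061 to 0.32 and Ctnnd1 -0.16 to 0.031. In TBT against ROSI, the ranges were Itgb5 -0.17 to 0.045, Jup -0.33 to 0.19, Itga10 -0.097 to 0.19, Itga5 -0.069 to 0.27 and Cdh2 -0.027 to 0.19.

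Members under about 1 CPM rest on few counts, and the reads on sensory receptor genes limit how far a low DMSO level can be read.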
